A study of Mus musculus with 18 samples.

Results

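The first day of induced cardiac reprogramming was followed in mouse fibroblasts whose Chst7 had been lowered by RNA interference. The comparison set the 3 siChst7 libraries taken 1 day after doxycycline against the 3 siChst7 libraries taken at day 0, 6 of the 18 libraries of the series, and covered every gene of the deposited table. Membership came from the sample labels, not from measured values. All cells belonged to 1 line, iMGT-Myh6-eGFP-MEF, mouse embryonic fibroblasts that switch on Mef2c, Gata4 and Tbx5 when doxycycline is given and that carry, by their name, a green fluorescent reporter of the cardiac myosin gene Myh6. Cells in reprogramming medium were plated at 1000 per well, transfected either with siChst7, the siRNA that targets Chst7, or with siControl, and given doxycycline at 1 µg/mL on the next day, called day 0. Day 0 samples had the siRNA but no doxycycline. Each sample pooled 40 wells, and each group had 3 samples that the labels call biological replicates; the labels do not say whether they were separate cultures, so p-values measure the spread between these samples. The 6 siControl libraries of days 0 and 1 served as the reference for how the same day went with Chst7 left in place. No day 1 sample went without doxycycline, so that the effect of the factors, of doxycycline, of a further day in culture and of a further day after transfection cannot be told apart. In bulk RNA, fewer cells of a kind and less RNA per cell cannot be told apart either.

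Forced expression of MEF2C, GATA4 and TBX5 moves fibroblasts towards a cardiomyocyte-like state. The factors are DNA-binding regulators that act together on heart muscle genes, and the conversion is known to compete with the fibroblast programme, with inflammatory signalling and with TGF-beta signalling. The product of Chst7 is an enzyme of the Golgi that sulfates chondroitin and related sugar chains, which are carried by proteoglycans at the cell surface and in the matrix. The series title names the upkeep of fibroblast identity during reprogramming as its subject.

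The 6 siChst7 libraries held 39246932 to 50021142 counts, and the 2 days lay apart on the first principal component of these and the siControl libraries (72.7% of the variance), with the 2 siRNAs apart on the second (6.9%). Replicate 3 of siChst7 at day 0 stood apart from its group. Set against the other 2 libraries, its counts gave chi-square values per degree of freedom of 15.2 and 14.8, against 3.66 between those 2 and 3.42 to 5.36 at day 1, and its deviation from them was correlated with gene length (rank correlation 0.39 across genes). Without that library 7765 genes were called in place of 8285. Levels are given as CPM, read counts relative to the scaled library total. Differences are log2 fold changes (log2FC) ± a standard error taken from the edgeR quasi-likelihood F-test. For genes with only a few counts on either day it can be smaller than the counting error. A gene is called where the Benjamini-Hochberg adjusted p of that test is below 0.05. The fibroblast label held for most of its defining markers. Of 10, 8 were tested, among them Vim, Col1a1, Col1a2 and Pdgfra, but Thy1 lay between 0 and 0.445 CPM and Lum between 0 and 0.181 CPM in the 6 libraries. Markers of other cell types were low. The endothelial list summed to 19.2 to 22.5 CPM at day 0 and 5.16 to 6.93 at day 1, with Tie1, Emcn and Cldn5 at 0 in all 6 libraries. The leukocyte list summed to 62.1 to 66.4 and 24.3 to 25.7 CPM, most of it Cd14 and Cd68, with Adgre1 at 0. The adipocyte list went from 39.7 to 43.0 down to 11.7 to 13.4 CPM, the neuronal and glial list was at 11.0 to 13.2 and 8.25 to 8.86 CPM, and the skeletal myogenic list stayed at or below 0.343 CPM with Myod1 at 0. The epithelial list was at 1.05 to 1.65 and 3.38 to 4.23 CPM, where the keratins Krt8, Krt18 and Krt19 rose and Grhl2 fell among 4 tested members.

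Chst7 (chromosome X, 20058963 to 20099991, GRCm38) was low on both days. It had 0.238, 0.611 and 0.465 CPM at day 0 and 0.95, 0.581 and 0.733 CPM at day 1 in siChst7 cells, where siControl cells had 19.7, 18.6 and 19.2 CPM and 40.4, 37.2 and 35.3 CPM. Every siChst7 library was below every siControl library of its day, while the siChst7 libraries of the 2 days overlapped. The log2FC of 0.80 ± 0.31 within siChst7 (edgeR adjusted p = 0.032) was lost with the compared libraries alone and when replicate 1 or 3 of day 0 or of day 1 was left out, with adjusted p of 0.0513 to 0.203, and the change was not called different from the siControl change (-0.18 ± 0.34, edgeR adjusted p = 0.808).

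The delivered factors rose together. Mef2c (chromosome 13, 83504017 to 83667079) had 45.2, 46.2 and 49.9 CPM at day 0 and 559.7, 587 and 565 CPM at day 1. Gata4 (chromosome 14, 63198914 to 63271712) had 72.4, 68.5 and 79 CPM and 791, 757 and 753 CPM, and Tbx5 (chromosome 5, 119796514 to 119885220) had 119, 119 and 137 CPM and 1299, 1317 and 1305 CPM. The days did not overlap for any of the 3. Their log2FC were 3.60 ± 0.05, 3.39 ± 0.06 and 3.39 ± 0.05 (edgeR adjusted p = 2.93e-23, 2.23e-22 and 6.03e-23). Counts per gene do not separate the delivered copies from the cells' own. Against siControl, the rise of Tbx5 was larger by 0.23 ± 0.07 (edgeR adjusted p = 0.0277), a call lost in 10 alternative fits, 2 of them other scalings. The differences for Mef2c and Gata4 were 0.13 ± 0.07 and 0.22 ± 0.07, with edgeR adjusted p of 0.265 and 0.0523.

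Most measured genes differed between the days. Of 24514 genes, 13802 passed the filter on low counts and 8285 of them were called (60%), 4073 higher (29.5%) and 4212 lower (30.5%) at day 1. At least 2-fold changes were fewer, with 914 genes higher (6.62%) and 956 lower (6.93%). For 9156 genes (66.3%) the 3 libraries of one day did not overlap with the 3 of the other. The median log2FC over the genes tested was -0.01, the value against which the list medians stand. The counts of list members that rose or fell stand against the 29.5% and 30.5% of all genes tested.

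The 10 largest rises among genes at a mean of at least 5 CPM and without overlap between the days were mostly striated muscle genes. Xirp2 (chromosome 2, 67446000 to 67526620), whose product binds actin at the intercalated disc, had 0 counts in the 3 day 0 libraries and 11.7, 13 and 11.2 CPM at day 1, at least 550.1-fold higher against a floor of 3 counts over the group. Hspb7, a small heat shock protein of heart muscle, went from 0.0397, 0 and 0.0465 CPM to 38.7, 34.1 and 31.9 CPM. Its log2FC of 10.09 rests on 4 counts at day 0, and its standard error of 0.22 understates the counting error. These were genes at or near 0 before induction. Myl7 (chromosome 11, 5896637 to 5898782), the atrial regulatory light chain of myosin, had 3 counts at day 0, all in replicate 3, and 12.6, 12.8 and 13.9 CPM at day 1, a ratio of 602 with a 95% counting interval of 206 to 2921. Its fitted log2FC of 9.04 was 12.05 without that library and 8.45 without replicate 1 of day 0. Mustn1 (chromosome 14, 30879257 to 30881610), a small nuclear protein of the musculoskeletal system, went from 0.198, 0.226 and 0.279 CPM to 84.9, 81 and 82.3 CPM (log2FC 8.46 ± 0.27). Groups that did not overlap were a condition of this ranking and held for 66.3% of all genes tested. Casq2, the calcium-binding protein of the cardiac sarcoplasmic reticulum, went from 0.0793, 0.0226 and 0.0465 CPM to 19, 15.3 and 18.8 CPM (8.36 ± 0.21), and Synpo2l, an actin-bundling Z-disc protein, from 0.178, 0.452 and 0.256 CPM to 90.6, 96.9 and 90.0 CPM (8.30 ± 0.13). Xirp1 (0 to 0.0905 CPM at day 0, 21.4, 21.1 and 21.1 CPM at day 1), the phosphatase gene Ptprr (24.1, 27.2 and 28 CPM at day 1) and Susd5 (23.5, 23.7 and 25.9 CPM at day 1) also started near 0. Their fitted log2FC depended on single day 0 libraries: 8.83 for Xirp1 became 8.20 without replicate 1 and 9.76 without replicate 2, 8.75 for Ptprr became 10.07 without replicate 2, and 8.07 for Susd5 became 7.43 without replicate 1. Col10a1 (chromosome 10, 34389981 to 34397085), a collagen known from hypertrophic cartilage, was the one matrix gene among them, at 1.21, 0.724 and 0.674 CPM and 149, 138 and 161 CPM (log2FC 7.39 ± 0.12, edgeR adjusted p = 2.23e-22).

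By the same limits, the 10 largest falls were in secreted inflammatory and matrix-degrading genes and in a few enzymes. Cxcl5 (chromosome 5, 90759298 to 90761625), a neutrophil-attracting chemokine, went from 475, 491 and 436 CPM to 1.16, 1.02 and 0.916 CPM, a log2FC of -8.82 ± 0.11 (edgeR adjusted p = 3.24e-24). Il1rl1, the receptor for interleukin 33, went from 699, 737 and 666 CPM to 20.6, 20.2 and 16.7 CPM (-5.19 ± 0.08). Ccl2 (chromosome 11, 82035577 to 82037452), which draws monocytes, went from 995, 1024 and 906 CPM to 44.1, 40.9 and 44 CPM (-4.50 ± 0.13). The absence of overlap between the days was again a condition of the ranking. Cxcl1, another neutrophil chemokine, fell by 4.91 on the log2 scale, from 174, 181 and 146 CPM to 5.14, 5.19 and 6.36 CPM. The stromelysin Mmp3 went from 904, 898 and 867 CPM to 43.2, 44.8 and 38.3 CPM (-4.40 ± 0.07), the collagenase Mmp13 from 311, 314 and 271 CPM to 16.2, 18 and 16.3 CPM (-4.15 ± 0.09) and Mmp10 from 15.1, 15.7 and 14.6 CPM to 0.132, 0.233 and 0.288 CPM (-6.10 ± 0.26). All 3 are secreted enzymes that cut matrix proteins. Ccbe1, a secreted protein needed for lymphatic growth, went from 174, 174 and 186 CPM to 5.72, 5.44 and 4.97 CPM, the steroid dehydrogenase Akr1c18 from 34.9, 32.9 and 28.5 CPM to 1.4, 1.16 and 0.471 CPM, and the glutathione transferase Gsta4 from 31.7, 31.9 and 24.1 CPM to 1.74, 2.05 and 1.57 CPM, with log2FC of -5.05 ± 0.10, -4.98 ± 0.21 and -4.03 ± 0.15.

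**Figure D1:**
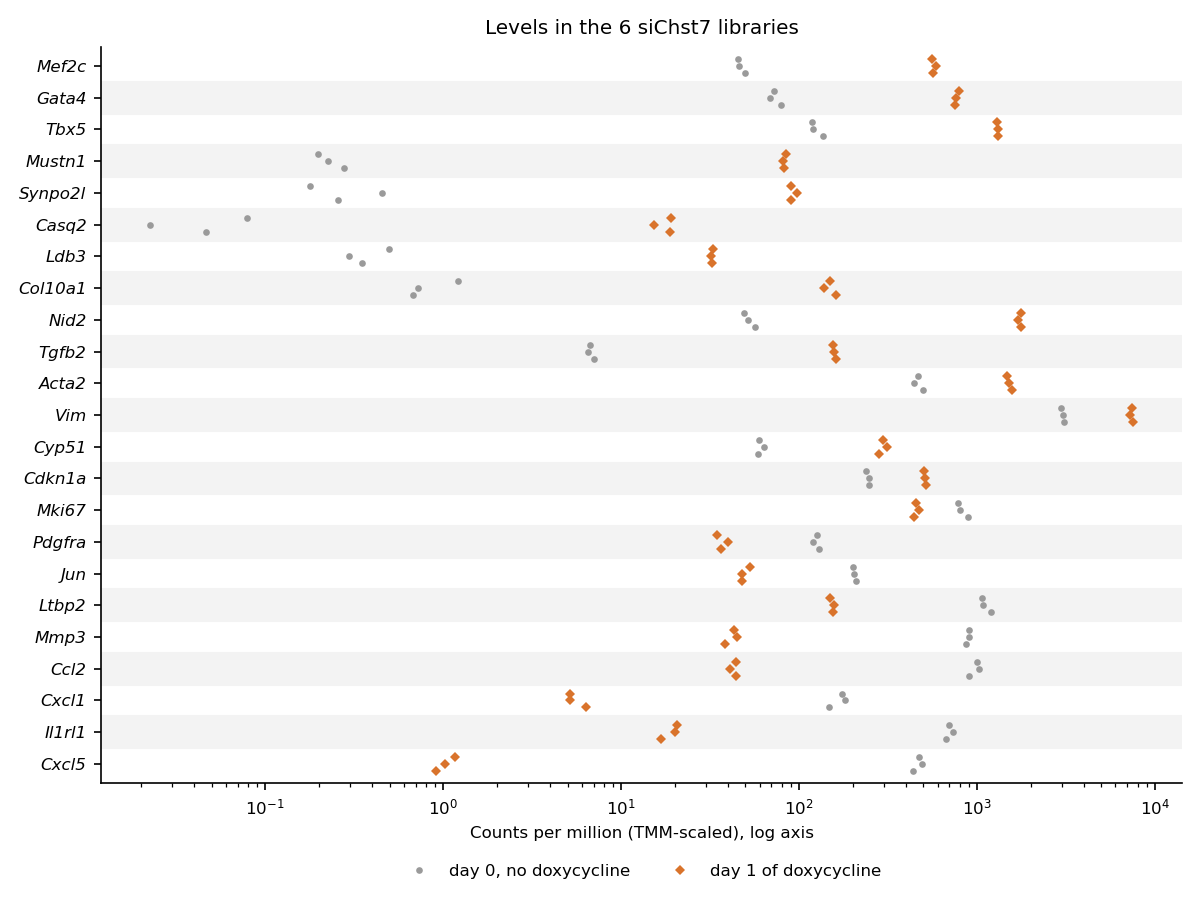
CPM (TMM-scaled, log axis) of 23 genes in the 6 siChst7 libraries, with grey circles for the 3 day 0 libraries and orange diamonds for the 3 day 1 libraries. For every gene drawn the days do not overlap, as for 66.3% of all genes tested. Muscle genes such as Mustn1 and Casq2 are higher at day 1 and Cxcl5 and Il1rl1 lower.

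Promoter sequence of some of these genes is printed to show where certain motifs lie near the start site. They are motifs of the delivered factors, of the serum response factor or of inflammatory regulators. The RefSeq promoter table of GRCm38.p6 gave windows of 300 bases, 250 before to 50 after the start. It matched 76.2% of the genes tested by symbol and 78.8% with older symbols, below the 80% set for a comparison of gene sets, so that no motif share is given for a group of genes. The 4 genes shown were chosen after their values were seen because their window holds a match, and capitals mark the match on either strand.
Xirp2 (chr2:67445883-67445982, plus strand): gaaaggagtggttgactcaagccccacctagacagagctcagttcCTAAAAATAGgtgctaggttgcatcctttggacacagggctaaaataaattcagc
Synpo2l (chr14:20668409-20668508, minus strand): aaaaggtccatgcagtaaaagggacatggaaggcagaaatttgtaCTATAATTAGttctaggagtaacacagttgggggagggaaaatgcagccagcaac
Myl7 (chr11:5898789-5898888, minus strand): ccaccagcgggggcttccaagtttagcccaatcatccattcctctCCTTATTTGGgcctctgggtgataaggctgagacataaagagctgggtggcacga
Cxcl1 (chr5:90891129-90891228, plus strand): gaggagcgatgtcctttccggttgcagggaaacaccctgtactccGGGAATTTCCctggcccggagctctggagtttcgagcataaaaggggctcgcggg
The stretches of Xirp2 and Synpo2l hold the MEF2 motif, CTA and TAG with 4 bases of any kind between them, 74 and 109 bases before the start, a motif found in 3.69% of the 32851 windows. Both also meet its stricter form with only A or T in the middle, found in 0.557%. That of Myl7 holds the CArG box, the site of the serum response factor, 61 bases before the start (1.63% of windows). That of Cxcl1 holds an NF-kappaB motif 71 bases before the start (4.51% of windows), overlapped by another match 70 bases before it. The Xirp2 stretch also holds the AP-1 motif TGANTCA, 107 bases before the start (7.81% of windows). A match describes the letters and does not show that a factor was bound.

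Sarcomere genes, which build the contractile unit of striated muscle, rose as a group. Of 42 listed, 34 were tested, 26 rose, 25 of them at least 2-fold, and 1 fell (median log2FC 2.52 over the members tested, which stays at 2.52 with 4 members at 0 on one day set to their bound). Members near 0 at day 0 could pass the filter on low counts only through groups where they were higher. With no filter 26 rose and the median was 2.03. Of the 42 listed, 21 stayed below 1 CPM in all 6 libraries. The summed level of the list went from 1750 to 1797 CPM at day 0 to 4451 to 4676 CPM at day 1. Beside Xirp2, Myl7, Xirp1 and Synpo2l, the Z-disc protein Ldb3 went from 0.496, 0.294 and 0.349 CPM to 32.7, 32.2 and 32.5 CPM (6.39 ± 0.10). The M-band protein Myom2 went from 4.03, 5.27 and 4.83 CPM to 58.1, 63.2 and 56 CPM (3.66 ± 0.08). The 1 member that fell was Tnni2, the fast skeletal troponin I, named after its values were seen, with 0 counts at day 1 and at least 3.46-fold lower. It was not called with a stricter filter or without the day 3 libraries. Myh6, the gene that the reporter follows, also named outside the rule, went from 1.33, 0.95 and 1.21 CPM to 3.9, 2.81 and 3.38 CPM (1.52 ± 0.18). It remained a low-level transcript on both days. Tnnt2, the cardiac troponin T, named in the same way, went from 20.4, 21.5 and 20.5 CPM to 122, 96.3 and 114 CPM (2.41 ± 0.08). Tnnc2, the member of highest mean CPM among those not called, had 0.793, 0.792 and 1.44 CPM at day 0 and 1.35, 1.4 and 0.811 CPM at day 1 (0.25 ± 0.28, edgeR adjusted p = 0.46).

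Of 30 listed genes of calcium and ion handling 21 were tested. Of these 8 rose and 8 fell, shares near the 29.5% and 30.5% of all genes tested, with a median log2FC of -0.14 (0.24 with no filter on low counts). The 8 that rose all did so at least 2-fold. Jph2, which holds the sarcoplasmic reticulum to the cell membrane, went from 0.0793, 0.0452 and 0.0465 CPM to 6.62, 6.35 and 6.26 CPM (6.71 ± 0.22), and its relative Jph1 from 5.85, 5.79 and 5.51 CPM to 32.8, 28 and 33.3 CPM (2.45 ± 0.07). The inward rectifier channel Kcnj2 moved the other way, from 56.7, 57.6 and 54.4 CPM to 10.1, 11.7 and 10.4 CPM (-2.39 ± 0.09). The pacemaker channel Hcn2 was not called, at 20.4, 19.8 and 23.5 CPM and 21.2, 21.6 and 20.2 CPM. Among cardiac regulators and secreted cardiac products 14 of 24 were tested, 6 rose and 4 fell. Ankrd1, a cardiac stress-responsive nuclear protein, went from 229, 249 and 241 CPM to 928, 911 and 937 CPM (1.95 ± 0.05), and the transcription factor Gata6 from 8.55, 8.89 and 10.1 CPM to 25.6, 23.2 and 24.2 CPM (1.41 ± 0.07). Zfpm2, a cofactor of GATA4, went from 67.8, 66.7 and 74.8 CPM to 25.4, 26.9 and 24.4 CPM (-1.45 ± 0.06). Srf, the serum response factor, had 187, 185 and 206 CPM and 210.5, 194 and 213 CPM and was not called (0.09 ± 0.05, edgeR adjusted p = 0.09).

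Smooth muscle and myofibroblast contractile genes were the third muscle list. All 15 were tested, 11 rose and 3 fell (median log2FC 0.91), and the count of falls was 1 without replicate 2 of day 1. Des, the muscle intermediate filament desmin, went from 3.41, 3.46 and 3.00 CPM to 26.4, 25.3 and 24.2 CPM (2.94 ± 0.10). Acta2 (chromosome 19, 34240336 to 34255585), the smooth muscle actin by which myofibroblasts are recognised, went from 464, 440.0 and 500.0 CPM to 1478, 1505 and 1582 CPM (1.70 ± 0.06, edgeR adjusted p = 2.04e-16). All 3 day 1 libraries lay far above all 3 day 0 libraries. Tagln (chromosome 9, 45929628 to 45936058), the actin-binding protein transgelin, went from 95.1, 95.7 and 86.4 CPM to 176, 169.6 and 175 CPM (0.91 ± 0.06), and Mylk, the myosin light chain kinase, from 3.03, 2.96 and 2.28 CPM to 10.6, 11.4 and 11 CPM (1.99 ± 0.10). Synpo2 was not called, at 1.07, 1.06 and 1.26 CPM and 0.528, 0.419 and 1.15 CPM.

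Genes of TGF-beta signalling, which drives myofibroblast genes in many settings, were divided. Of the 26 members, all tested, 9 rose and 13 fell (median log2FC -0.15), beside 29.5% and 30.5% of all genes tested. The ligand Tgfb2 (chromosome 1, 186622787 to 186709697) went from 6.68, 6.52 and 7.02 CPM to 156, 156 and 161 CPM (4.55 ± 0.06, edgeR adjusted p = 3.8e-24), and the ligand Tgfb3 from 49.5, 50.2 and 49.9 CPM to 343, 323 and 363 CPM (2.78 ± 0.05). The co-receptor Tgfbr3 went from 221, 215 and 236 CPM to 63, 67.8 and 61.6 CPM (-1.81 ± 0.05), and Ltbp2, a matrix protein of the latent TGF-beta binding family, from 1068, 1085 and 1195 CPM to 149.6, 158 and 155 CPM (-2.85 ± 0.05). The signalling receptor Tgfbr2 was not called, at 109, 112 and 120.1 CPM and 113, 110.1 and 116 CPM (-0.01 ± 0.05).

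Fibroblast identity genes fell as a group. Of 30 listed, 24 were tested, 19 fell, 13 of them at least 2-fold, and 4 rose (median log2FC -1.09). Pdgfra (chromosome 5, 75151322 to 75198206), the receptor by which fibroblasts and their precursors are sorted, went from 126, 120.4 and 129 CPM to 34.6, 39.6 and 36.6 CPM (-1.76 ± 0.05, edgeR adjusted p = 7.88e-18), and its relative Pdgfrb from 194, 192 and 210.4 CPM to 95.7, 99.1 and 95.3 CPM (-1.04 ± 0.04). Bnc1, a zinc finger protein, went from 56.7, 58.9 and 60.5 CPM to 9.68, 12.6 and 12.2 CPM (-2.35 ± 0.08), and Dcn, the small proteoglycan decorin, from 195, 189 and 174 CPM to 61.9, 66.4 and 58.1 CPM (-1.58 ± 0.10). The list's summed level nevertheless went up, from 5213 to 5299 CPM to 8691 to 8899 CPM. Vim (chromosome 2, 13574311 to 13582826), the mesenchymal intermediate filament vimentin, rose by more than the whole sum did, from 2963, 3028 and 3086 CPM to 7450.3, 7279 and 7514 CPM (1.29 ± 0.04). Pi16 was not called, at 0.317, 0.249 and 0.093 CPM and 0.106, 0.093 and 0 CPM.

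Collagens and other matrix genes were divided. Of 19 tested collagens, 6 rose and 11 fell (median log2FC -0.54), beside 29.5% and 30.5% of all genes tested. Col12a1, a fibril-associated collagen, went from 94.6, 95.4 and 116 CPM to 508, 529 and 557 CPM (2.38 ± 0.06) and the fibrillar collagen Col5a2 from 1395, 1380.3 and 1494 CPM to 3363, 3306 and 3404 CPM (1.24 ± 0.04). Col16a1 and Col6a1 went from 159 ± 6.71 CPM to 56.8 ± 2.66 CPM and from 239 ± 9.85 CPM to 103 ± 3.13 CPM (mean ± SD, n = 3). Col4a2, of basement membranes, was not called at 1351, 1373 and 1513 CPM and 1459, 1426 and 1455 CPM. Of 22 tested matrix glycoproteins, 9 rose and 11 fell (median -0.23). The largest rise was that of Nid2 (chromosome 14, 19751257 to 19811787), the basement membrane protein nidogen 2, from 48.7, 51.5 and 56.8 CPM to 1769, 1692 and 1764 CPM (5.06 ± 0.06, edgeR adjusted p = 1.19e-24). Thbs1, thrombospondin 1, which can activate latent TGF-beta, went from 1109.9, 1087 and 1287 CPM to 4775, 4777 and 4843 CPM (2.05 ± 0.05). The elastic fibre protein Fbln5 rose by 1.36 ± 0.05, while Loxl1, which crosslinks elastin, went from 324, 321 and 346 CPM to 153, 141 and 142 CPM (-1.19 ± 0.05). Lamb1, a laminin chain, was not called (-0.04 ± 0.04). Among 19 tested proteases and inhibitors 6 rose and 11 fell (median -0.73). In contrast to the metalloproteinases above, the aggrecan-cleaving enzymes Adamts4 and Adamts1 went from 11.8, 12.4 and 14.5 CPM to 131, 121 and 133 CPM (3.32 ± 0.08) and from 58.9, 61.6 and 69.7 CPM to 289.9, 277 and 302 CPM (2.19 ± 0.06). Plau, the urokinase, was not called (-0.02 ± 0.25).

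The sugar chains on which Chst7 acts depend on core proteins, on enzymes that build the chain and on sulfation. Of 17 tested proteoglycan cores, 10 fell and 3 rose (median log2FC -0.58). The syndecans Sdc4 and Sdc3 went from 276, 274 and 279 CPM to 155, 155 and 150.4 CPM (-0.85 ± 0.04) and from 135, 143 and 160.3 CPM to 75.2, 71.6 and 73.5 CPM (-0.99 ± 0.06), and the glypican Gpc1 from 356, 345 and 363 CPM to 174, 177 and 173 CPM (-1.03 ± 0.05). All 3 are cell surface proteoglycans. Hspg2, perlecan, was not called (-0.07 ± 0.05). Of 17 tested chondroitin and dermatan enzymes, 5 rose and 7 fell (median -0.09, and 0.02 with no filter on low counts). Of all genes tested 29.5% rose and 30.5% fell. Chst3, a chondroitin 6-sulfotransferase, went from 5.57, 5.45 and 5.74 CPM to 27.6, 28.7 and 33 CPM (2.41 ± 0.11). Csgalnact1 (chromosome 8, 68356781 to 68735621), which starts the chondroitin chain, went the other way, from 18.4, 19.6 and 20.2 CPM to 2.77, 3.7 and 2.62 CPM (-2.67 ± 0.13). The linker enzyme B3galt6 and the dermatan and chondroitin sulfotransferase Ust changed by -0.82 ± 0.07 and -0.90 ± 0.11. Chpf, a chondroitin polymerising factor, was not called (0.03 ± 0.06). Of 16 tested heparan sulfate enzymes and sulfate donors, 5 rose and 7 fell (median -0.10). Papss2 (chromosome 19, 32595669 to 32667187), which makes the sulfate donor used by sulfotransferases, went from 10.7, 9.5 and 10.1 CPM to 98.4, 107 and 99.7 CPM (3.33 ± 0.06, edgeR adjusted p = 1.05e-21). The days were far apart in every library. The chain polymerase Ext2 rose by 0.62 ± 0.04, and Hs6st2 and Extl2 changed by -0.60 ± 0.04 and -0.65 ± 0.07. Ndst1 was not called (-0.09 ± 0.05).

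**Figure D2:**
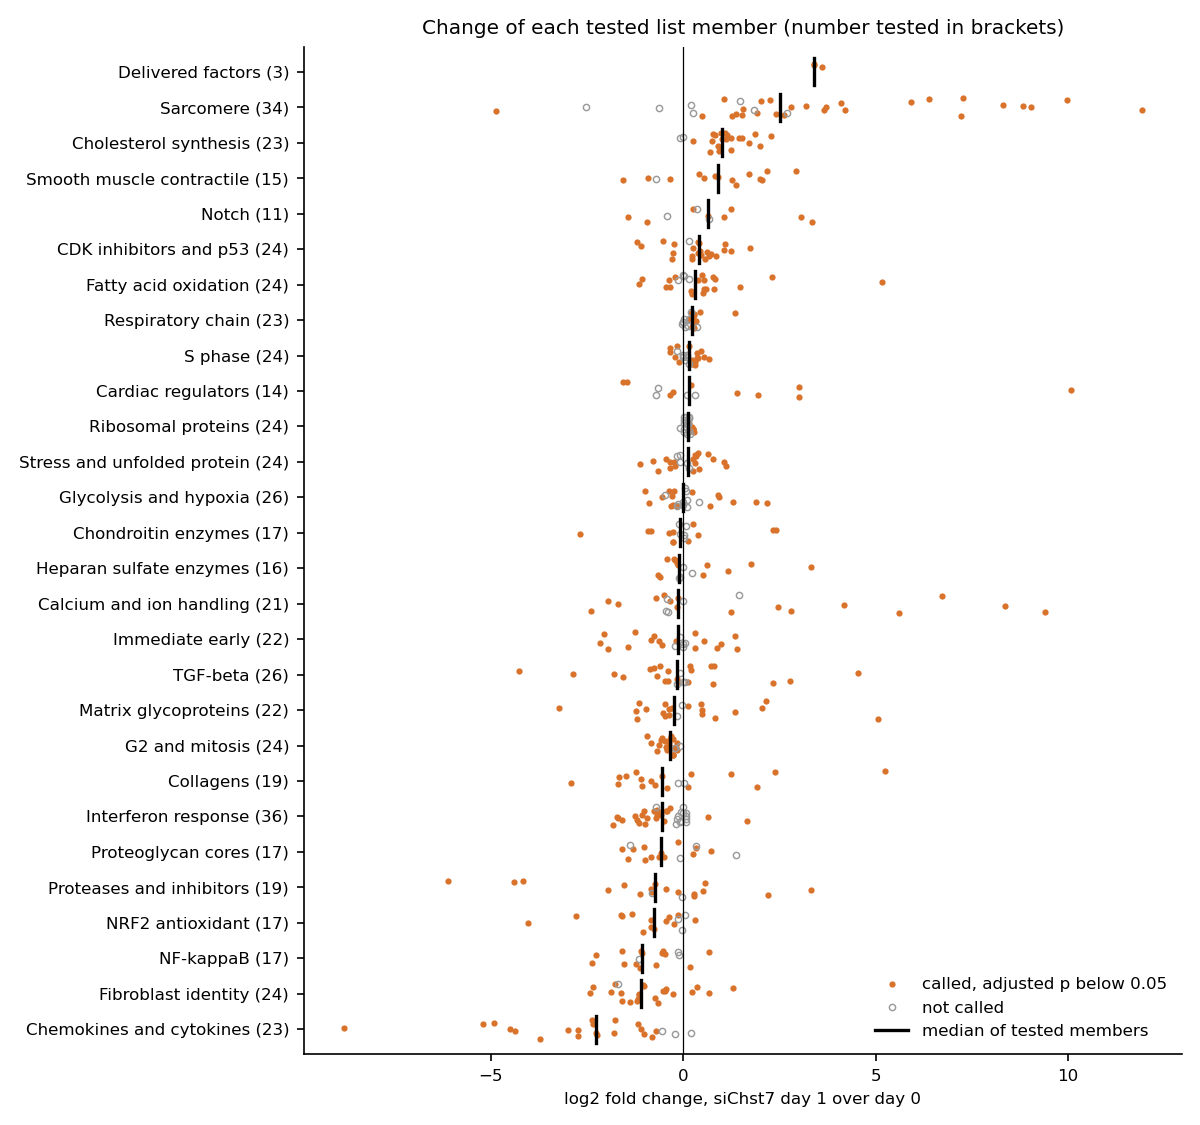
Log2 fold change, siChst7 day 1 over day 0, of each tested member of 28 gene lists. Filled points are called, open points are not, and the black bar is the median of the tested members, from 3.39 for the delivered factors and 2.52 for the sarcomere list to -2.27 for chemokines and cytokines.

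Chemokine and cytokine genes fell over the day. Of 23 tested chemokines and cytokines, 20 fell, 18 of them at least 2-fold, and 0 rose (median log2FC -2.27). Their summed level went from 4240 to 4492 CPM down to 974 to 987 CPM. Of the leukocyte markers 7 were tested, of which 3 fell and 2 rose (median -0.67), while the pan-leukocyte marker Ptprc lay between 0 and 0.0465 CPM in the 6 libraries; their part in the fall was not tested. Il1a was not called, at 9.78, 8.94 and 8.34 CPM and 7.99, 7.02 and 8.22 CPM. Of 17 NF-kappaB subunits, feedback inhibitors and adhesion targets, 12 fell and 2 rose (median -1.06). The adhesion molecule Vcam1 went from 201, 201 and 194 CPM to 39.5, 38.7 and 38 CPM (-2.36 ± 0.06), and Nfkbia, which holds NF-kappaB in the cytoplasm and is itself its target, from 119, 119 and 115 CPM to 41.2, 39.7 and 41.5 CPM (-1.53 ± 0.04). Tnfaip3 and Relb went from 41 ± 2.83 CPM to 13.7 ± 1.04 CPM and from 67.8 ± 2.92 CPM to 32.5 ± 0.555 CPM. The subunit Rela was not called (-0.10 ± 0.06).

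Of the 36 interferon response genes, 21 fell and 2 rose (median log2FC -0.54). The antiviral gene Oasl2 went from 52.2, 49.4 and 66.9 CPM to 18.5, 18.5 and 19.3 CPM (-1.58 ± 0.12), and Rtp4 from 37.7, 37 and 39.9 CPM to 18.7, 18.8 and 19.3 CPM (-1.01 ± 0.08). The GTPase Gbp7 fell by 1.24 ± 0.08 and the transcription factor Irf1 by 0.75 ± 0.05 on the log2 scale. Replicate 3 of day 0 was the highest of its group for Oasl2. Bst2, tetherin, was not called, at 139, 132 and 142 CPM and 148, 134 and 127 CPM. Of 22 immediate early genes, 10 fell and 7 rose (median -0.14), beside 30.5% and 29.5% of all genes tested. Jun and Fosl1, subunits of the AP-1 factor, went from 202, 205 and 209 CPM to 53.3, 47.8 and 48.1 CPM (-2.05 ± 0.05) and from 56.4, 58.6 and 57.3 CPM to 12.8, 13.4 and 12.4 CPM (-2.16 ± 0.08). Myc went from 124, 117 and 137 CPM to 53.3, 52.8 and 53.7 CPM (-1.24 ± 0.05) and the early response gene Ier3 from 106, 106 and 97.5 CPM to 28.9, 25 and 26.6 CPM (-1.95 ± 0.06). Fosl2, a further AP-1 subunit, was not called at 278, 277 and 300.0 CPM and 295, 283 and 278 CPM.

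Mitotic genes fell by small amounts while replication genes were divided. Of 24 genes of G2 and mitosis, 22 fell and 0 rose, none of them 2-fold (median log2FC -0.35). Mki67, the proliferation marker, went from 777, 800.0 and 886 CPM to 454, 472 and 444 CPM (-0.85 ± 0.04), Cenpf from 299, 315 and 329.8 CPM to 155, 166 and 169.7 CPM (-0.94 ± 0.05) and the checkpoint kinase Bub1b from 174, 182 and 172 CPM to 109, 108 and 111 CPM (-0.69 ± 0.04). Foxm1, a transcription factor of mitotic genes, changed by -0.58 ± 0.05. Cdk1 was not called (-0.07 ± 0.08). Of 24 S phase genes, 12 rose and 5 fell (median 0.15). The replication factor Gins2 and the helicase subunits Mcm6 and Mcm3 rose by 0.67 ± 0.06, 0.36 ± 0.03 and 0.35 ± 0.04, whereas the licensing factor Cdt1 changed by -0.35 ± 0.04. Pcna, the sliding clamp, was not called, and its lowest day 0 value was that of replicate 3 (369, 368 and 302 CPM against 386, 381 and 391 CPM at day 1). Of 24 tested cyclin-dependent kinase inhibitors and p53 targets, 17 rose and 6 fell (median 0.40). Cdkn1a, the inhibitor p21, went from 239, 246 and 248 CPM to 501, 509 and 515 CPM (1.06 ± 0.05), Btg2 from 39.6, 37.8 and 41.4 CPM to 134, 135 and 131 CPM (1.75 ± 0.04) and the receptor Eda2r from 36.4, 41.8 and 38.8 CPM to 85.4, 96.1 and 93.7 CPM (1.23 ± 0.06). The polo-like kinase Plk2 went the other way, from 456, 473 and 474 CPM to 212, 227 and 212 CPM (-1.11 ± 0.04). Sesn2 was not called (0.14 ± 0.08).

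Cholesterol synthesis genes rose almost throughout. Of 23 tested, 21 rose, 12 of them at least 2-fold, and 0 fell (median log2FC 1.02). The sterol demethylase Cyp51 went from 59.2, 63.5 and 59.1 CPM to 294, 310.3 and 283 CPM (2.29 ± 0.05, edgeR adjusted p = 2.61e-20) and Idi1, which makes an early isoprenoid, from 11.4, 12.5 and 10.7 CPM to 44.2, 47.9 and 46.6 CPM (2.00 ± 0.09). Fdps, an early enzyme of the pathway, rose by 1.87 ± 0.06. Ebp was not called (-0.09 ± 0.08). Of 24 tested genes of fatty acid uptake and oxidation, 14 rose and 6 fell (median 0.31). The heart fatty acid-binding protein Fabp3 went from 0.198, 0.181 and 0.256 CPM to 7.91, 7.98 and 6.94 CPM (5.15 ± 0.24), and Acadm, the medium-chain dehydrogenase, from 13.5, 14.1 and 13.2 CPM to 40.7, 35 and 38.6 CPM (1.48 ± 0.07). Pdk4, which holds back glucose oxidation, rose by 2.30 ± 0.13 and the thiolase Acaa2 by 0.82 ± 0.05. Echs1 was not called, at 63.7, 66.1 and 60.2 CPM and 66.7, 63.9 and 59.1 CPM. Of 23 tested nuclear-encoded respiratory chain subunits, 14 rose and 0 fell (median 0.22). The count that rose was 10 without replicate 3 of siChst7 at day 0, 11 with library totals and 16 without the day 3 libraries. Cox4i1, Sdha and Atp5b rose by 0.43 ± 0.05, 0.29 ± 0.03 and 0.28 ± 0.04, and Cyc1 was not called (0.02 ± 0.05). Of 26 glycolysis and hypoxia genes, 7 rose and 9 fell (median -0.01), near the 29.5% and 30.5% of all genes tested. Eno3, the muscle enolase, went from 56.8, 59.1 and 56.2 CPM to 209.9, 214 and 212 CPM (1.88 ± 0.04), Ndrg1 from 47.5, 48.8 and 50.7 CPM to 119, 122 and 118 CPM (1.29 ± 0.04), and the collagen hydroxylase subunit P4ha1 and the phosphofructokinase Pfkp rose by 0.94 ± 0.04 and 0.92 ± 0.04. Gpi1 was not called (0.10 ± 0.04).

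Stress, antioxidant, ribosomal and Notch genes completed the lists. Of 24 genes of the integrated stress and unfolded protein responses, 11 rose and 8 fell (median log2FC 0.12). The ATF4 targets Chac1 and Psat1 went from 12, 11.2 and 10.5 CPM to 26.2, 23.8 and 22.9 CPM (1.11 ± 0.09) and from 228, 227 and 206 CPM to 339, 365 and 338 CPM (0.66 ± 0.05), and Ddit4, an inhibitor of mTOR signalling, from 57.4, 54.8 and 53.1 CPM to 25.8, 22.9 and 27 CPM (-1.13 ± 0.07). Sdf2l1 rose by 0.77 ± 0.06, and the chaperone Hspa5 was not called (-0.08 ± 0.04). Of 17 NRF2 antioxidant genes, 13 fell and 1 rose (median -0.76). Nqo1, a quinone reductase, went from 126, 122 and 104 CPM to 17, 17.3 and 16.5 CPM (-2.79 ± 0.10), Srxn1 from 195, 194 and 187 CPM to 73.4, 76 and 78 CPM (-1.34 ± 0.04) and the mitochondrial superoxide dismutase Sod2 from 191, 185 and 167 CPM to 57.8, 61.7 and 60.1 CPM (-1.60 ± 0.06). Nfe2l2, which encodes NRF2 itself, was not called (-0.13 ± 0.06). Of 24 ribosomal protein genes, 8 rose and 0 fell (median 0.13), but the count was 1 without replicate 3 of day 0, 3 without replicate 1 or 3 of day 1 and 5 without replicate 2 of day 1. It was 3 with library totals, 12 with no filter on low counts, 15 with only the compared libraries and 17 without the day 3 libraries. Rps2 had 1277, 1278 and 1104 CPM and 1430.1, 1386 and 1464 CPM (0.23 ± 0.05), and Rpl19, Rpl5 and Rps14, at 0.25 ± 0.08, 0.29 ± 0.09 and 0.25 ± 0.09, were not called without replicate 3. Rplp0 was not called (0.03 ± 0.05). Of 11 tested Notch genes, 6 rose and 2 fell (median 0.64, and 0.31 with no filter on low counts). The summed level of the list nevertheless went down, from 345 to 382 CPM to 255 to 265 CPM. Of its 14 members, 7 stayed below 1 CPM in all 6 libraries. Jag1 (chromosome 2, 137081451 to 137116520), a Notch ligand, went from 16.1, 16.9 and 19.3 CPM to 42.9, 39 and 42 CPM (1.25 ± 0.07) and the receptor Notch3 from 8.81, 8.8 and 11.5 CPM to 20.3, 19.2 and 20.9 CPM (1.06 ± 0.08). The receptor Notch2 and the DNA-binding mediator Rbpj went from 187, 179.7 and 201 CPM to 96.4, 106 and 95.9 CPM (-0.93 ± 0.05) and from 96.2, 96.4 and 101 CPM to 35.1, 36.8 and 36.3 CPM (-1.44 ± 0.06). Hey2, a Notch target, was not called, at 0.714, 0.452 and 0.651 CPM and 0.818, 0.558 and 0.995 CPM (0.36 ± 0.28). In the directions given as 0 in these lists, edgeR at an unadjusted p under 0.05 and DESeq2 at an adjusted p under 0.05 also gave 0.

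Whether the first day went differently in siChst7 cells was tested as an interaction, the siChst7 change minus the siControl change. No other siRNA against Chst7 is among the samples, so that loss of Chst7 and other effects of siChst7 cannot be told apart. The 2 changes come from separate libraries. In siControl cells 8322 genes were called (60.3%), 4071 higher (29.5%) and 4251 lower (30.8%), with 979 (7.09%) and 935 (6.77%) changed at least 2-fold, and 6602 of the genes called in siChst7 were called the same way there. That is 79.7% of the siChst7 calls and 79.3% of the siControl calls. Across the genes tested the log2FC of the 2 siRNAs had a Pearson r of 0.87 and a Spearman rho of 0.82, with a slope of 0.85 of siChst7 on siControl; genes are not independent replicates. The interaction was called for 1615 genes (11.7%), with the siChst7 change higher for 856 (6.2%) and lower for 759 (5.5%). With library totals in place of TMM scaling the split was 522 higher and 1206 lower. The difference reached 2-fold for 69 genes upward (0.5%) and 61 downward (0.442%). Called changes went in opposite directions for 111 of the 13802 genes tested, 76 of them higher at day 1 in siChst7 and lower in siControl. The interaction was called for all 111, which 2 called changes of opposite sign make nearly certain.

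**Figure D3:**
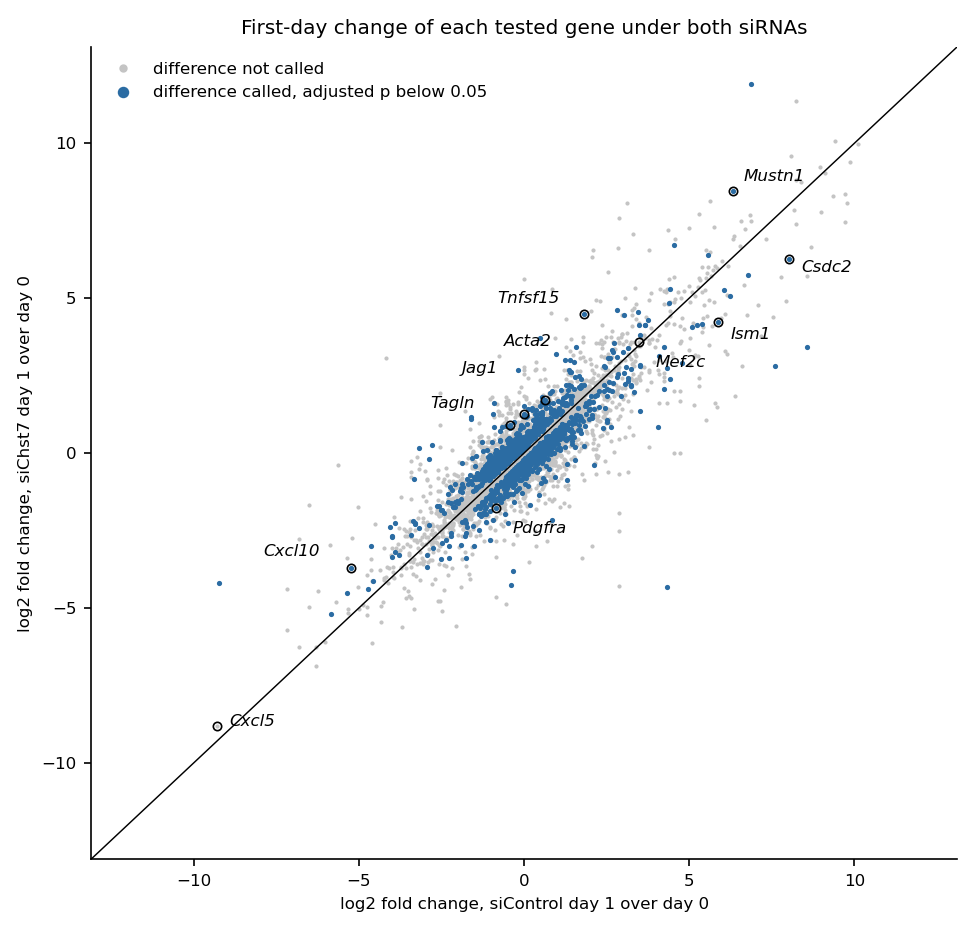
Log2 fold change from day 0 to day 1 of each of the 13802 genes tested, in siControl (x axis) and in siChst7 (y axis), with the line of equal change. Blue points are the 1615 genes whose difference was called; Tnfsf15, Mustn1 and Tagln lie above the line, Csdc2, Ism1 and Pdgfra below it.

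Among genes with a mean of at least 5 CPM over the 12 libraries and changes that did not overlap between the siRNAs, the 6 largest positive differences were those of a cytokine, of muscle-associated genes and of immune genes. Genes at lower levels, such as Xirp2 and Jph2, described further on, are outside that ranking. Tnfsf15, a cytokine of the tumour necrosis factor family, went from 0.833, 0.995 and 1.02 CPM to 22.2, 21.7 and 20.5 CPM in siChst7 and from 2.44, 1.95 and 2.59 CPM to 7.62, 9.91 and 7.21 CPM in siControl. The interaction was 2.67 ± 0.21 (edgeR adjusted p = 1.48e-08). siChst7 cells started below and ended above siControl cells, without overlap on either day. Mustn1 rose more in siChst7 by 2.14 ± 0.58 (edgeR adjusted p = 0.018), from 0.234 ± 0.0409 CPM against 0.744 ± 0.134 CPM in siControl at day 0 to 82.7 ± 1.98 CPM against 59.4 ± 1.41 CPM at day 1. That call was lost without replicate 1 of day 0 in either siRNA (edgeR adjusted p 0.0592 and 0.0618). Fhl1, a muscle LIM protein, went from 58.2, 57.9 and 61.5 CPM to 455, 437 and 475 CPM, against 171 ± 7.46 CPM and 489.8 ± 6.41 CPM in siControl, a difference of 1.42 ± 0.09 (edgeR adjusted p = 7.07e-10). For Slfn2 and Cxcl10, the second a chemokine induced by interferon, the difference was a smaller fall. Slfn2 went from 10.3, 10.7 and 8.93 CPM to 1.21, 1.02 and 1.52 CPM in siChst7 and from 10.8, 12.5 and 10.1 CPM to 0.421, 0.517 and 0.407 CPM in siControl (1.62 ± 0.34, edgeR adjusted p = 0.0028). Cxcl10 went from 44.5, 43.5 and 57.3 CPM to 3.43, 3.00 and 4.63 CPM, against 40.3, 38.4 and 40.3 CPM and 1.57, 0.891 and 0.669 CPM in siControl (1.54 ± 0.33, edgeR adjusted p = 0.00347). Defb48, a defensin gene, was not called within siChst7, at 8.88, 8.98 and 8.9 CPM and 7.39, 9.19 and 8.38 CPM, but went from 10.9 ± 0.649 CPM to 3.92 ± 0.765 CPM in siControl (1.37 ± 0.19, edgeR adjusted p = 3.25e-05).

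In the negative direction, by the same limits, 4 of the 6 largest differences were smaller rises from a higher start. Csdc2, an RNA-binding protein, went from 0.159, 0.181 and 0.279 CPM to 15.5, 15.4 and 16.5 CPM in siChst7 and from 0.115, 0.0886 and 0.0446 CPM to 23.9, 20.5 and 22.3 CPM in siControl (-1.76 ± 0.41, edgeR adjusted p = 0.00593), a call lost without replicate 3 of siChst7 at day 0 (adjusted p 0.0585). Ism1, a secreted protein, went from 2.17 ± 0.44 CPM to 40.2 ± 1.36 CPM in siChst7 and from 0.883 ± 0.112 CPM to 51.9 ± 1.1 CPM in siControl (-1.65 ± 0.16). The nuclear receptor Nr4a3 and Akap6, which anchors protein kinase A in heart muscle, showed the same order of levels. Nr4a3 had 1.12 ± 0.142 CPM and 19.9 ± 2.27 CPM against 0.592 ± 0.129 CPM and 25.2 ± 0.747 CPM (-1.25 ± 0.23), and Akap6 2.55 ± 0.302 CPM and 84.5 ± 2.1 CPM against 1.44 ± 0.24 CPM and 108 ± 1.21 CPM (-1.16 ± 0.12). Mylk rose less in siChst7, to 10.6, 11.4 and 11 CPM against 21.9, 21.6 and 25.2 CPM (-1.35 ± 0.14, edgeR adjusted p = 1.05e-06), from day 0 levels that overlapped. Angpt1, an angiopoietin, fell in siChst7 alone past the threshold, from 13.7, 15.2 and 14.4 CPM to 5.22, 6.19 and 6.44 CPM, with 8.11, 8.04 and 7.71 CPM and 7.8, 6.87 and 8.26 CPM in siControl (-1.22 ± 0.14, edgeR adjusted p = 4.35e-06).

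In the smooth muscle list the interaction was positive for 6 of 15 tested members and negative for 1, beside 6.2% and 5.5% of all genes tested. Acta2 rose by 1.70 ± 0.06 from 468 ± 30.2 CPM in siChst7 and by 0.64 ± 0.06 from 1294 ± 69.9 CPM in siControl (mean ± SD, n = 3), a difference of 1.06 ± 0.09 (edgeR adjusted p = 2.09e-08). At day 1 the siChst7 libraries were still the lower ones, at 1478, 1505 and 1582 CPM against 2077, 2006 and 1986 CPM. Tagln rose in siChst7 and fell in siControl, where it went from 219, 219.7 and 239.7 CPM to 169.7, 172 and 162 CPM, an interaction of 1.34 ± 0.08 (edgeR adjusted p = 6.93e-10). From clearly different starts the 2 groups came to overlapping levels at day 1. In the separate list of cardiac regulators and secreted products, 5 of 14 interactions were positive and 1 negative. The positive count was 3 to 6 over the alternatives. Of that list, Ankrd1 started lower and ended higher, at 239.6 ± 9.87 CPM and 925 ± 13.5 CPM against 417 ± 7.52 CPM and 723 ± 17.5 CPM (1.16 ± 0.07, edgeR adjusted p = 2.9e-10). Srf, also of that list, went from 301, 298 and 299 CPM to 214, 210.0 and 208 CPM in siControl. Its interaction was 0.60 ± 0.07 (edgeR adjusted p = 1.76e-06) although the siChst7 change itself was not called. In the sarcomere list 6 of 34 interactions were positive and 2 negative. The positive count was 4 to 7 over the alternatives, and the negative count was 4 with the replicate block or without the day 3 libraries. The 2 negative ones were those of Tnnt2 (-0.75 ± 0.11) and of Mybph, named after their values were seen. Among the positive ones that of Ldb3 was 0.81 ± 0.19, lost without replicate 2 of siChst7 at day 0 or replicate 3 of siControl at day 0. Jph2 of the calcium list differed by 2.17 ± 0.45 (edgeR adjusted p = 0.00236), from 0.057 ± 0.0193 CPM against 0.381 ± 0.143 CPM at day 0, while its day 1 level in siChst7, 6.41 ± 0.189 CPM, was below the 8.96 ± 0.545 CPM of siControl. Jph1 differed by 0.91 ± 0.10 and Kcnj2 by -0.67 ± 0.14. The fitted difference of Xirp2, 5.05, compares 0 counts with near 0 at day 0, is no bound, and was not called when any siChst7 day 0 library or replicate 1 of siControl at day 0 was left out.

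In the TGF-beta list 9 interactions were positive and 3 negative of 26. The shares over all genes tested, beside which this and the next lists stand, were 6.2% and 5.5%. Tgfb2 went from 6.74 ± 0.257 CPM to 158 ± 2.92 CPM in siChst7 and from 16.4 ± 1.49 CPM to 180.0 ± 4.34 CPM in siControl (1.09 ± 0.08, edgeR adjusted p = 3.06e-09). The level in siChst7 was below that of siControl on both days. Tgfb3 differed by 0.33 ± 0.07 and Tgfbr3 by -0.33 ± 0.06. Of the matrix glycoproteins 6 of 22 were positive and 1 negative, with Thbs1 at 0.70 ± 0.07, Lamb1 at 0.35 ± 0.06 and Fbln5 at 0.26 ± 0.06, the last lost with library totals. Col12a1 differed by 0.65 ± 0.08 and Col4a2 by 0.25 ± 0.07, a call of Col4a2 lost in 5 alternative fits, among 3 positive and 3 negative of 19 collagens. The positive collagens were 5 without the day 3 libraries. Proteases and inhibitors had 6 positive and 1 negative, and 3 positive with library totals or without replicate 2 of siChst7 at day 1 or replicate 3 of siControl at day 0. Adamts1 rose more in siChst7, to 289.9, 277 and 302 CPM against 227, 229.5 and 231 CPM in siControl (0.83 ± 0.08). Fibroblast identity genes had 0 positive and 5 negative of 24. That count was 2 to 3 when replicate 1 or 3 of siChst7 at day 0, replicate 2 or 3 of siChst7 at day 1, any siControl library of day 0 or replicate 2 of siControl at day 1 was left out. Pdgfra fell from 126, 120.4 and 129 CPM in siChst7 and from 67.7, 68.2 and 64.6 CPM in siControl to 34.6, 39.6 and 36.6 CPM and 37.3, 38.7 and 35.5 CPM, levels that overlapped (-0.91 ± 0.08, edgeR adjusted p = 2.65e-08). Pdgfrb differed by -0.21 ± 0.06, a call lost in 4 alternative fits.

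**Figure D4:**
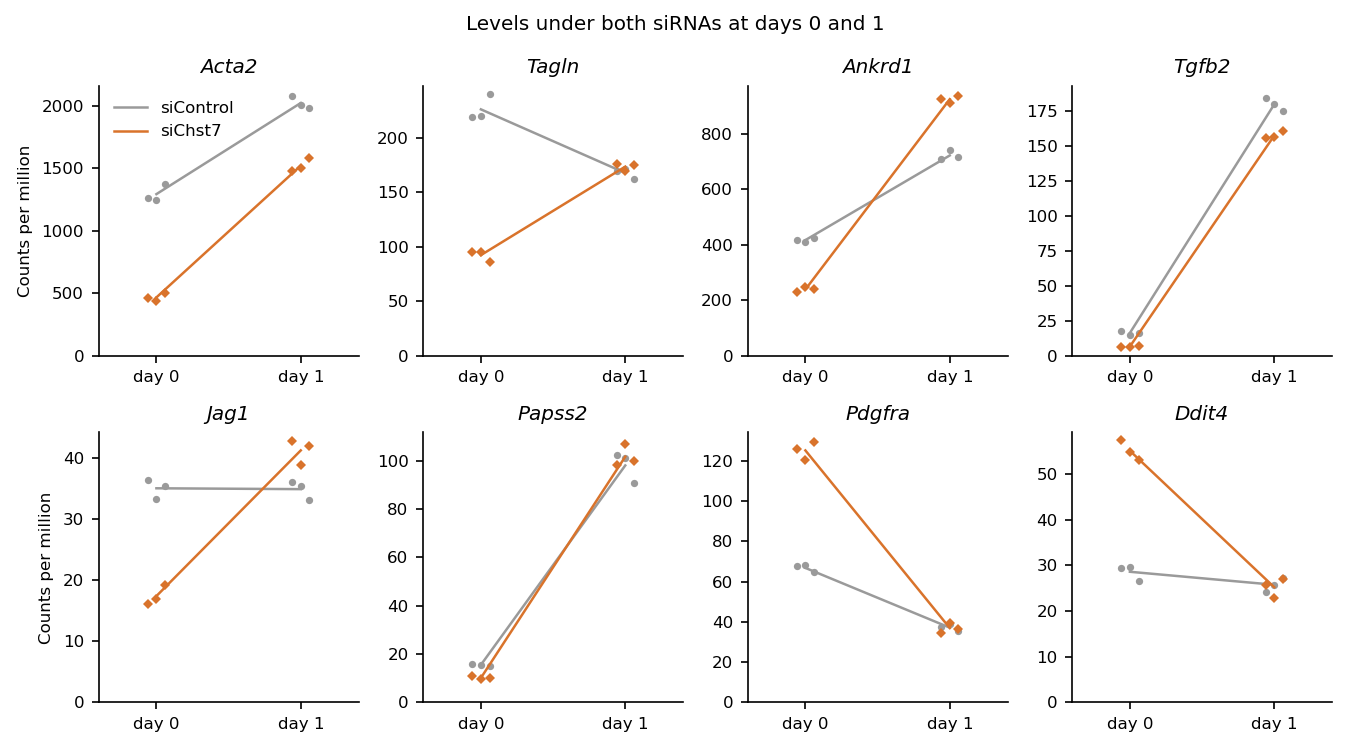
CPM of 8 genes at day 0 and day 1 in siControl (grey circles) and siChst7 (orange diamonds), 1 point per library and lines between the means of 3. Tagln, Pdgfra, Ddit4 and Papss2 differ between the siRNAs at day 0 and overlap at day 1, Ankrd1 and Jag1 cross, and Acta2 and Tgfb2 stay lower in siChst7.

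Among proteoglycan and sugar chain genes the interaction was positive for 2 and negative for 4 of 17 chondroitin and dermatan enzymes. It was positive for 4 and negative for 1 of 16 heparan enzymes, and positive for 2 and negative for 1 of 17 cores, beside 6.2% and 5.5% of all genes tested. Sdc4 fell less in siChst7, from 276 ± 2.42 CPM to 154 ± 2.76 CPM against 363 ± 3.3 CPM to 142 ± 3.92 CPM (0.51 ± 0.05, edgeR adjusted p = 5.62e-07). Papss2 started lower, at 10.7, 9.5 and 10.1 CPM against 15.8, 15.6 and 15.2 CPM, and reached overlapping levels at day 1, 98.4, 107 and 99.7 CPM against 102, 101 and 90.6 CPM (0.67 ± 0.08, edgeR adjusted p = 7.31e-06). Csgalnact1 started higher, at 18.4, 19.6 and 20.2 CPM against 12.2, 9.96 and 10.5 CPM, and also reached overlapping levels, 2.77, 3.7 and 2.62 CPM against 2.62, 3.42 and 3.31 CPM (-0.87 ± 0.20, edgeR adjusted p = 0.00513). Hs6st2 differed by 0.27 ± 0.06. For Chst3 the difference was 0.01 ± 0.16 and was not called (edgeR adjusted p = 0.974). Most of these small counts moved with the processing. The 2 positive chondroitin enzymes were 0 with library totals, and 1 with upper quartile scaling, with no filter on low counts, or without replicate 1 or 2 of siChst7 at day 0, 1 or 3 of siChst7 at day 1, 1 or 3 of siControl at day 0, or 2 or 3 of siControl at day 1. The negative core, Gpc6, named after its values were seen, was not called with the replicate block or without any 1 of the 12 libraries other than replicate 1 of siControl at day 1. The 2 positive cores were 1 without replicate 3 of siChst7 at day 1. The count of negative heparan enzymes was 2 with library totals or without the day 3 libraries. The 4 positive heparan enzymes were 2 with library totals or without replicate 1 of siChst7 at day 0, replicate 3 of siChst7 at day 1 or replicate 3 of siControl at day 0.

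In the interferon response list the interaction was positive for 18 of 36 members and negative for 0 (median difference 0.44, and 0.0024 over all genes tested). Over all genes tested 6.2% were positive and 5.5% negative. In siControl 33 of these genes fell and 1 rose, in siChst7 21 fell and 2 rose. Oasl2 ended at 18.5, 18.5 and 19.3 CPM in siChst7 and 10.5, 11.2 and 14.9 CPM in siControl, from day 0 levels that overlapped (0.72 ± 0.17, edgeR adjusted p = 0.00634). Rtp4 ended at 18.7, 18.8 and 19.3 CPM against 11, 9.22 and 12.9 CPM (0.70 ± 0.11, edgeR adjusted p = 0.000143). Isg15, Usp18 and Mx2, named after their values were seen, were not called within siChst7 (-0.06 ± 0.09, 0.00 ± 0.10 and 0.08 ± 0.16) and differed from siControl by 0.98 ± 0.13, 0.88 ± 0.14 and 0.93 ± 0.23. The count of 18 was 12 to 26 over the alternatives and 23 without replicate 3 of siChst7 at day 0. Of the 7 leukocyte markers tested 0 had a called interaction, with Cd14 at -0.19 ± 0.12 and Cd68 at 0.14 ± 0.14. In the chemokine list 4 of 23 were positive and 2 negative. Ccl2 ended at 44.1, 40.9 and 44 CPM in siChst7 and 19.1, 21 and 21.4 CPM in siControl (0.87 ± 0.17, edgeR adjusted p = 0.00105), and Il1rl1 at 20.6, 20.2 and 16.7 CPM and 8.67, 7.93 and 7.71 CPM (0.64 ± 0.11). NF-kappaB genes had 5 positive and 0 negative, with Tnfaip3 at 0.43 ± 0.11, and immediate early genes 7 positive and 0 negative, with Myc at 0.30 ± 0.07 and Fosl2 at 0.20 ± 0.06, the call of Fosl2 lost in 9 alternative fits. With library totals both lists gained negative calls, 3 and 2, as they did without the day 3 libraries, and with library totals Myc was not called.

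Metabolic and stress genes split by list. Their counts stand beside 6.2% positive and 5.5% negative calls over all genes tested. NRF2 genes had 0 positive and 5 negative of 17, with Sod2 at -0.32 ± 0.08, Srxn1 at -0.31 ± 0.06 and Nqo1 at -0.43 ± 0.13, the last lost in 9 alternative fits. Fatty acid oxidation genes had 1 positive and 6 negative of 24. Acadm rose less in siChst7, to 40.7, 35 and 38.6 CPM against 70.7, 76.9 and 75.1 CPM (-0.80 ± 0.10, edgeR adjusted p = 5.9e-06), and so did Acaa2 (-0.50 ± 0.07, edgeR adjusted p = 7.07e-05). Cholesterol synthesis had 0 positive and 4 negative, with Idi1 at -0.43 ± 0.12, and 1 to 2 negative without replicate 2 of siChst7 at day 0, replicate 1 of siChst7 at day 1, replicate 2 or 3 of siControl at day 0 or replicate 2 of siControl at day 1. Stress genes had 10 positive and 1 negative of 24. The negative one was Ddit4, which fell from 57.4, 54.8 and 53.1 CPM to 25.8, 22.9 and 27 CPM in siChst7 and had 29.6, 29.7 and 26.6 CPM and 24.2, 25.7 and 27.4 CPM in siControl (-0.98 ± 0.11, edgeR adjusted p = 1.3e-06). Chac1 differed by 0.78 ± 0.13 and Psat1 by 0.28 ± 0.06. Glycolysis and hypoxia genes had 7 positive and 0 negative of 26, with Ndrg1 at 0.81 ± 0.06 and Pfkp at 0.39 ± 0.05. The p53 and kinase inhibitor list had 2 positive and 6 negative of 24. The 6 negative differences ran from -0.79 to -0.18 and were led by Trp53inp1, a p53 target named after its values were seen (-0.79 ± 0.11), while Plk2, at 0.34 ± 0.05, was one of the positive ones. S phase genes and G2 and mitosis genes each had 1 positive and 0 negative of 24, below the shares over all genes tested. Ribosomal protein genes had 0 called either way, or 10 positive with no filter on low counts or without the day 3 libraries. Without the day 3 libraries the positive glycolysis and hypoxia genes were 11 and the positive S phase genes 5. In the Notch list 2 of 11 were positive and 3 negative. Jag1 rose from 16.1, 16.9 and 19.3 CPM to 42.9, 39 and 42 CPM in siChst7 and had 36.4, 33.4 and 35.5 CPM and 36.1, 35.5 and 33.2 CPM in siControl (1.25 ± 0.10, edgeR adjusted p = 8.35e-09). Hey2 differed by 1.32 ± 0.37, with 2.14, 1.57 and 1.76 CPM and 0.903, 0.805 and 1.1 CPM in siControl, a call lost in 4 alternative fits. Notch3, Rbpj and Notch2 differed by -0.43 ± 0.12, -0.28 ± 0.08 and -0.24 ± 0.07, the 3 negative calls, all lost without replicate 3 of siChst7 at day 0. In the directions given as 0 among these interactions, 0 to 5 members of a list passed an unadjusted p under 0.05 in edgeR and 0 to 2 were called by DESeq2.

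**Figure D5:**
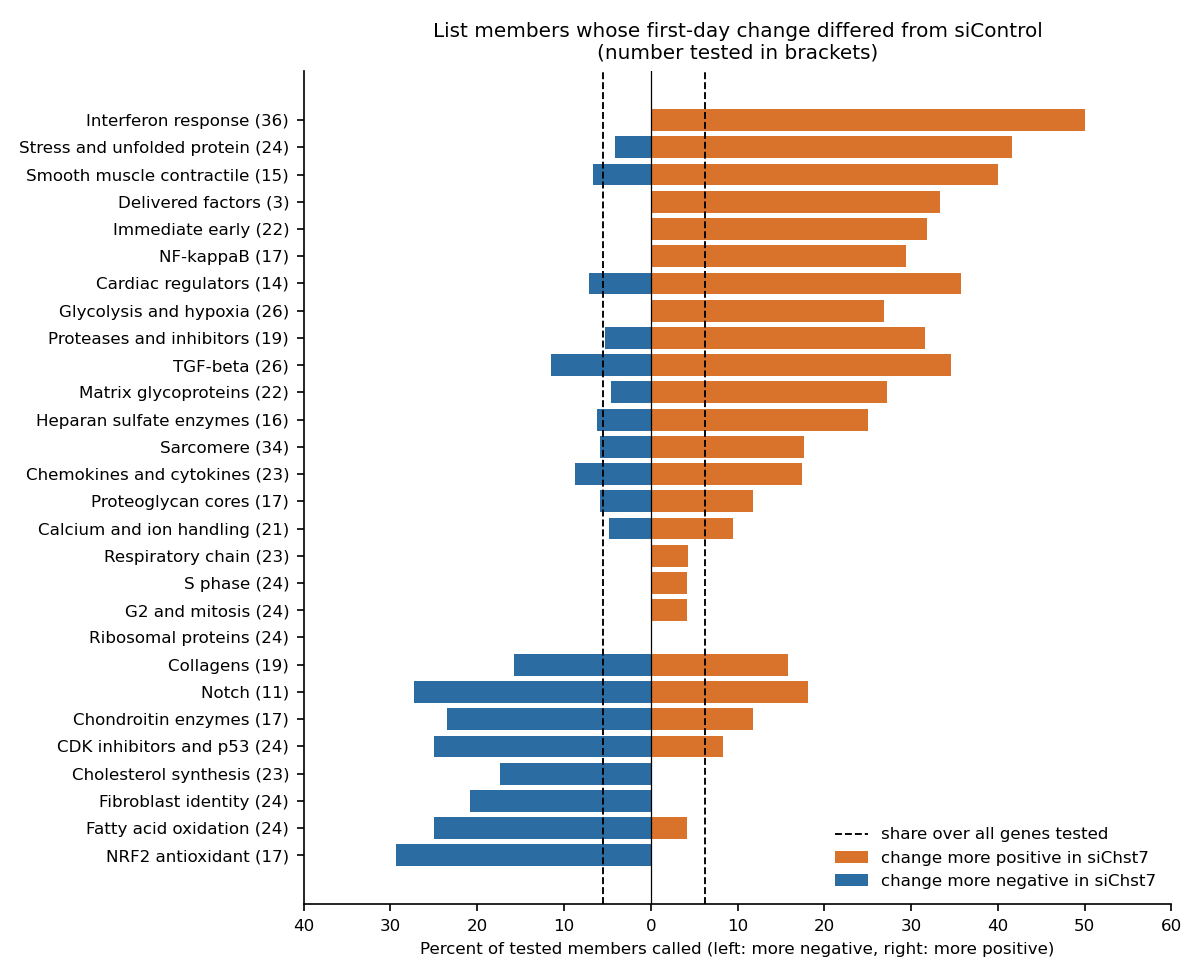
Percent of the tested members of each list whose day 1 change in siChst7 was called more positive (right, orange) or more negative (left, blue) than in siControl. Dashed lines mark the shares over all genes tested, 6.2% and 5.5%. The interferon response list reaches 50% on the positive side. The NRF2, fibroblast identity and cholesterol synthesis lists have calls on the negative side alone.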

How the data were processed

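Total RNA from 18 pools of cells was made into poly-A libraries, per the labels' protocols. The authors deposited 1 table of raw read counts per gene for mouse build mm10. HISAT2, Subread, featureCounts and DESeq2 are named in the submitters' processing notes; with versions, annotation release and strand setting not given in the sources used here, genes that overlap on opposite strands, or share reads with a near copy, are uncertain. The table holds no mitochondrially encoded gene, and 25 symbols that read as dates were not named. Columns were tied to samples by the library names in the labels. All 18 libraries entered 1 edgeR 4.0.16 fit (R 4.3.3, limma 3.58.1) of 6 groups: filterByExpr, TMM scaling, quasi-likelihood F-test, Benjamini-Hochberg adjustment over 13802 genes. The standard error is the size of the log2FC divided by the root of the F statistic. It can understate the error of genes with only a few counts in a group. Depth was 34467618 to 50021142 counts in the 12 libraries compared; the common dispersion of 0.00331 corresponds to a coefficient of variation of 5.75%, with 12 residual degrees of freedom. Intervals and floors (3 counts over a group) cover counting error only. The fits were also run on simulated counts in which a small part of the genes was changed, in siChst7 at day 1 alone. Most genes were called in the data, so that the simulation does not check the scaling. Nor does it check the library that stood apart.

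Named were Chst7 and the 3 factors, the 10 largest called changes each way with at least 5 CPM and no overlap, up to 4 called members of each list by p and its uncalled member of highest mean CPM, and, within the same limits, the 6 largest interactions each way. Other genes are said to be named after their values were seen. The 28 gene lists, 7 marker lists and the comparisons were chosen with earlier results of these data known. Alternatives were DESeq2 1.42.0 as test and as scaling, library totals, upper quartile scaling, no filter and a stricter filter, the compared libraries alone, the replicate number as a block, each library left out, and, added after seeing the data, no day 3 libraries. Promoter windows, gene positions and older symbols came from RefSeq tables of GRCm38.p6; day 3 was not analysed here beyond its part in the fit. Some genes that the rule names are not reported here.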

Additional observations from a re-analysis of the deposited data

Results flagged for a closer look

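The results below were picked out because the change over the first day differed between siChst7 and siControl by the interaction test of edgeR. That held for 1615 genes. The values are siChst7 change minus siControl change, in log2 units, for the named genes called; those that lost the call in at least 1 alternative fit were Tbx5, Xirp2, Mustn1, Mmp3, Mmp13, Ldb3, Pdgfrb, Col4a2, Fbln5, Myc, Fosl2, Gins2, Idi1, Nqo1, Rbpj, Notch2, Notch3, Hey2 and Csdc2.

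Among genes with a mean of at least 5 CPM and changes that did not overlap, the largest positive differences were those of 6 genes. Tnfsf15 had 2.67, Mustn1 2.14, Slfn2 1.62, Cxcl10 1.54, Fhl1 1.42 and Defb48 1.37. On the negative side, by the same limits, Csdc2 had -1.76, Ism1 -1.65, Mylk -1.35, Nr4a3 -1.25, Angpt1 -1.22 and Akap6 -1.16. Of muscle and cardiac genes, Tbx5 had 0.23, Xirp2 5.05, Ldb3 0.81, Jph1 0.91, Jph2 2.17, Kcnj2 -0.67, Ankrd1 1.16, Srf 0.60, Acta2 1.06 and Tagln 1.34. The value of Xirp2 rests on counts at or near 0 at day 0.

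Of TGF-beta, fibroblast and matrix genes, Tgfb2 had 1.09, Tgfb3 0.33, Tgfbr3 -0.33, Pdgfra -0.91, Pdgfrb -0.21, Col12a1 0.65, Col4a2 0.25, Thbs1 0.70, Fbln5 0.26, Lamb1 0.35, Adamts1 0.83, Mmp3 0.33 and Mmp13 0.44. Of proteoglycan and sugar chain genes, Sdc4 had 0.51, Csgalnact1 -0.87, Papss2 0.67 and Hs6st2 0.27. Of inflammatory and immediate early genes, Il1rl1 had 0.64, Ccl2 0.87, Tnfaip3 0.43, Oasl2 0.72, Rtp4 0.70, Myc 0.30 and Fosl2 0.20.

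Of cell cycle, metabolic and stress genes, Gins2 had 0.25, Plk2 0.34, Idi1 -0.43, Acadm -0.80, Acaa2 -0.50, Ndrg1 0.81, Pfkp 0.39, Ddit4 -0.98, Psat1 0.28, Chac1 0.78, Srxn1 -0.31, Nqo1 -0.43 and Sod2 -0.32. Of Notch genes, Rbpj had -0.28, Notch2 -0.24, Jag1 1.25, Notch3 -0.43 and Hey2 1.32.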

How the results depend on the processing

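Within siChst7, 7633 to 8869 genes were called over all alternatives. No named gene changed direction while called; several uncalled ones, such as Plau (-0.19 to 0.19), changed sign. Calls were 4299 higher and 4181 lower with only the compared libraries, and 4513 and 4356 without the day 3 libraries, against 4073 and 4212. Of 130 named genes called, 126 kept the call in every alternative; Chst7, Rpl19, Rpl5 and Rps14 did not, and 11 of 28 uncalled ones were called in some. Of 64 named interaction calls, 45 were kept in every alternative. With library totals the interaction calls were 522 higher and 1206 lower, and 40.9% of the siChst7 calls were higher in place of 49.2%. For the interaction, the setting with only the compared libraries and that without the day 3 libraries are the same fit. There the interaction was called for 2448 genes, 1299 higher and 1149 lower, and the cause was not tested. Without 1 library at a time the siChst7 calls numbered 7633 to 7816 (3746 to 3845 higher, 3887 to 4013 lower; at least 2-fold 878 to 926 and 944 to 957). The interaction calls numbered 1219 to 1465 (660 to 850 higher, 559 to 691 lower; at least 2-fold 61 to 79 and 51 to 63), and the siControl calls 7772 to 7835 (3785 to 3837 higher, 3963 to 4040 lower; at least 2-fold 959 to 982 and 915 to 942). DESeq2 called 8356 genes within siChst7 and 1864 for the interaction. Replicates of the same number did not deviate together (r of -0.02 to 0.06, and -0.05 to 0.06 for different numbers). These values give no sign of pairing by number but cannot show how the samples were made. With the replicate block 8198 genes were called in siChst7, 1503 for the interaction and 8226 in siControl. Genes near 0 at day 0 are limited by depth, as their fold changes turn on a few counts.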
